A study of Homo sapiens with 12 samples.

Results

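The collagen-binding integrin alpha subunits are the products of ITGA1, ITGA2, ITGA10 and ITGA11, and the 4 rows of the gene count table that carry these names were taken from 58735 genes in all. The rows were picked by name, but the family was chosen with earlier results of these data known. All 4 genes passed the filter on low counts, which kept 17829 genes for testing.

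Integrins are cell surface receptors built from an alpha and a beta chain, and they tie the extracellular matrix to the actin cytoskeleton. Each of these 4 alpha chains pairs with the beta chain encoded by ITGB1 and carries an inserted domain, the I domain, that binds collagen. The integrin with the ITGA2 chain is the main collagen receptor of epithelial cells and platelets and prefers fibrillar collagen, while the one with the ITGA1 chain prefers collagen IV of basement membranes. The ITGA10 chain is best known from cartilage cells, and the ITGA11 chain from fibroblasts, where its integrin binds collagen I.

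A549, an established human lung adenocarcinoma line that grows attached to the dish, was profiled by RNA-Seq with or without expression of GFI1, a transcription factor with zinc fingers that acts in early blood formation. The 4 groups of 3 libraries were attached control, attached GFI1, floating control and floating GFI1 cells, and the floating cells had been held in suspension for 48 hours. The GFI1 cells carried human GFI1 on a lentivirus with a PGK promoter and a GFP marker and were sorted for GFP as a population, with no single clone described. The sources used here do not state whether the RNA-Seq controls carried an empty vector, so GFI1 and transduction cannot be told apart, nor do they state whether the libraries of a group came from separate cultures, so the p values measure only the spread between these libraries. The question for the 4 genes is how a GFI1-dependent gain of ITGA11 compares with the losses of ITGA1 and ITGA2, in attached and in floating cells. That question was set with earlier results of these data known, and the study had singled out ITGA1 and ITGA2 partly on these same libraries. The directions of ITGA11, ITGA1 and ITGA2 under GFI1 are therefore not independent evidence.

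The libraries held 17014188 to 20748677 counts. GFI1 had at most 12 counts in any control library, and 285.6 to 294.4 CPM (counts scaled to library size and composition by TMM) in attached GFI1 and 430.2 to 705.5 CPM in floating GFI1 cells. The epithelial keratins KRT8, KRT18, KRT7 and KRT19, with EPCAM and CDH1, summed to 10386 to 10986 CPM in attached control, 4222 to 4339 CPM in attached GFI1, 6529 to 6938 CPM in floating control and 3039 to 3411 CPM in floating GFI1 libraries. Most of this sum was KRT8, KRT18 and KRT7. With GFI1, 5 of the 6 fell in each state, where 32.8% and 31.1% of all tested genes fell. CDH1 led, from a mean of 119.8 to 6.45 CPM in attached cells. KRT19 rose in attached cells (1.11 to 1.97 CPM) and was not called in floating cells. Of 12 fibroblast markers, DCN, POSTN and FAP had 0 counts in every library, and the 12 summed to between 17.5 and 22.5 CPM in every group. Most of this sum was COL1A1 and ACTA2. Mean ACTA2 was 7.18 CPM in attached control, 8.99 in attached GFI1, 6.54 in floating control and 9.59 in floating GFI1 cells. The 7 blood cell markers summed to 15.3 to 16.0 CPM in attached control, 24.8 to 29.1 in floating control and 68.5 to 78.8 in the GFI1 libraries, almost all of it ITGB2, the beta chain of leukocyte integrins, whereas PTPRC, the defining leukocyte surface phosphatase, had at most 1 count in any library. The 5 endothelial markers summed to 0.163 to 0.459 CPM in attached control, 3.65 to 5.26 in attached GFI1, 0.283 to 0.722 in floating control and 5.02 to 5.62 in floating GFI1 libraries. The 2 of them that were tested, CDH5 and VWF (VWF named after its values were seen), rose with GFI1 in both states in edgeR's test, with 1 to 3 and 0 to 4 counts in control libraries and 52 to 89 and 11 to 18 counts in GFI1 libraries. With GFI1, 2 of 5 tested fibroblast markers rose and 1 fell in attached cells, and 3 rose and 2 fell in floating cells. PDGFRB, a growth factor receptor, rose in both states (1 to 5 counts in control, 35 to 66 in GFI1 libraries) and COL1A1, a collagen chain, fell in both. The floating GFI1 libraries were the least alike, with a chi-square per gene of 4.40 to 10.5 between pairs and the highest value between replicates 2 and 3, while pairs within the other groups ran from 1.93 to 3.45. Values that rest on floating GFI1 replicate 2 are therefore also given without it.

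ITGA1 (ENSG00000213949) and ITGA2 (ENSG00000164171) are neighbours on the plus strand of chromosome 5 in GRCh38, at chr5:52787916-52959209 and chr5:52989340-53094779, with 30131 bases between them. ITGA10 (ENSG00000143127) lies on the minus strand at chr1:145891208-145910111, and ITGA11 (ENSG00000137809) on the minus strand at chr15:68296532-68432163. The windows around their start sites are shown because GFI1 is a DNA-binding factor whose recognition site holds the letters AATC. Each runs 5′ to 3′ on the strand of its gene, from 250 bases before the RefSeq start site to the first 50 transcribed bases (RefSeq, GRCh38.p14), and AATC, or GATT where AATC lies on the opposite strand, is in capitals. The coordinates are chr5:52787666-52787965 for ITGA1, chr5:52989102-52989401 for ITGA2, chr1:145910001-145910300 for ITGA10 and chr15:68432114-68432413 for ITGA11.
ITGA1: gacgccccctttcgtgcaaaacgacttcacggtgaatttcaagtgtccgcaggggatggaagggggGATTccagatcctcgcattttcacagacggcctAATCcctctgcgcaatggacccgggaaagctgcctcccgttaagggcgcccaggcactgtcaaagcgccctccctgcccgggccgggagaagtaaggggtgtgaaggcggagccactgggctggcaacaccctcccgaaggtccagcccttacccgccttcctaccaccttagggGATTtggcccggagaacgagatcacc
ITGA2: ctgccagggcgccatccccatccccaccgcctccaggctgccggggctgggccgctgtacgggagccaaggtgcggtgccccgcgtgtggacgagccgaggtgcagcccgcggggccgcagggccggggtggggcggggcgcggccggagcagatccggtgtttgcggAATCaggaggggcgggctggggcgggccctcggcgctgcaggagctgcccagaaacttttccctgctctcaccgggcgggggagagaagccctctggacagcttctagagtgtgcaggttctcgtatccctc
ITGA10: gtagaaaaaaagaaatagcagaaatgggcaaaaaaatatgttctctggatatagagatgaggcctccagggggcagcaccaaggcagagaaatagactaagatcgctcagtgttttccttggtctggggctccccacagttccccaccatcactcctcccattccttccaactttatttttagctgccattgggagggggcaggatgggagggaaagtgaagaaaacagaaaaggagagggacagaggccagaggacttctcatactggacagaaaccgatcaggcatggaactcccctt
ITGA11: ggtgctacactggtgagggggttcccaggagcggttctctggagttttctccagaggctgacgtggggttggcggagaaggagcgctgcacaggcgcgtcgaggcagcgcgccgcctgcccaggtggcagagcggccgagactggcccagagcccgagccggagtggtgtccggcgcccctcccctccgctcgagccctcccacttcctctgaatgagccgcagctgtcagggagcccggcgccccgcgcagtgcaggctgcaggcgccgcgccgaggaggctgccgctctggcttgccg
The ITGA1 window held 3 matches to AATC, at positions -184, -151 and 25 from the start site, and the ITGA2 window held 1, at -82. The ITGA10 and ITGA11 windows held 0. PELO, an overlapping gene on the same strand, begins at the same base as ITGA1, so the ITGA1 window is also that of PELO. At least 1 match, counted on both strands, was present in 69% of 35116 windows of the same length, so a match is common. The longer form AAATCAC, which contains AATC, was in 0 of the 4 windows and in 3.14% of all windows. These matches describe letters only and say nothing of GFI1 binding. The windows also differed in composition, with 19, 27, 2 and 29 CpG dinucleotides for ITGA1, ITGA2, ITGA10 and ITGA11, where the median over all windows was 14. The 2 CpG of ITGA10 went with a GC content of 48.7%, and the 3 other windows had 61.7%, 72.7% and 72%.

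With GFI1, the mix of collagen receptor chains turned over. ITGA2 was the leading chain of control cells and ITGA10 and ITGA11 led in GFI1 cells, in attached and floating cells alike. In attached cells, ITGA11 rose 66.5-fold and ITGA10 19.6-fold, ITGA2 fell 2.27-fold, and ITGA1 did not pass the test. Suspension raised ITGA2 and ITGA10 in control and in GFI1 cells, and neither effect of suspension on ITGA11 passed the test.

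**Figure D1:**
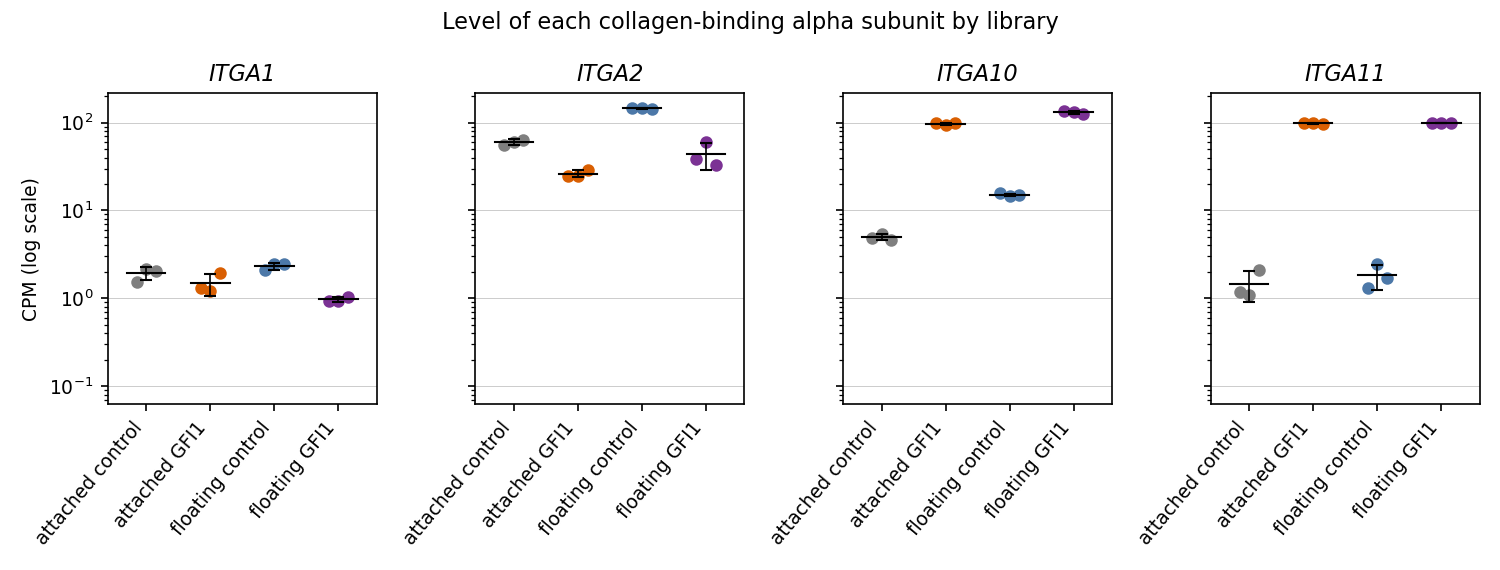
CPM (log scale) of the 4 collagen-binding alpha subunits in each library of the 4 groups, with the group mean and SD as bars (n = 3). ITGA10 and ITGA11 lie at 94.7 CPM or more in every GFI1 library, ITGA11 is at or below 2.47 CPM in every control library, and floating control cells have the highest ITGA2.

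ITGA11 was almost silent without GFI1. Attached control libraries held 20, 20 and 37 counts (1.19, 1.09 and 2.12 CPM), and attached GFI1 libraries 1740, 2131 and 1938 (98.0, 98.4 and 97.0 CPM). Floating control libraries held 22, 41 and 30 counts (1.30, 2.47 and 1.70 CPM), and floating GFI1 libraries 1775, 1788 and 1988 (97.9, 98.6 and 98.9 CPM). The GFI1 libraries were all far above the control libraries with no overlap, and the 6 of them lay within a few CPM of one another whether the cells were attached or floating. The log2 fold change with GFI1 was 6.06 ± 0.11 (SE; edgeR quasi-likelihood test, adjusted p = 4.17e-24) in attached cells and 5.75 ± 0.11 (edgeR adjusted p = 5.03e-24) in floating cells. The difference between these effects did not pass the interaction test (-0.30 ± 0.24, edgeR adjusted p = 0.505). Among the 17829 genes tested, these changes ranked 26 and 22 from the top. For suspension, the log2 value of ITGA11 was 0.31 ± 0.23 in control cells (95% interval -0.17 to 0.79, edgeR adjusted p = 0.314) and 0.01 ± 0.06 in GFI1 cells (-0.11 to 0.13, edgeR adjusted p = 0.929), and the attached and floating libraries overlapped in both. The control value depended on 1 library: without attached control replicate 3, the highest of its group, it was 0.67 (edgeR adjusted p = 0.0340). The order of levels was therefore both GFI1 groups above both control groups, with no detectable step within either pair.

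ITGA10 had the most regular pattern of the 4, and it responded to suspension as well as to GFI1. Attached control libraries held 81, 99 and 81 counts (4.82, 5.38 and 4.65 CPM), and attached GFI1 libraries 1747, 2051 and 1979 (98.4, 94.7 and 99.1 CPM). Floating control libraries held 263, 244 and 261 counts (15.6, 14.7 and 14.8 CPM), and floating GFI1 libraries 2468, 2415 and 2524 (136, 133 and 126 CPM). No group overlapped another, and the order rose from attached control through floating control and attached GFI1 to floating GFI1. GFI1 raised ITGA10 by 4.29 ± 0.07 on the log2 scale in attached cells (edgeR adjusted p = 3.23e-25) and by 3.13 ± 0.06, or 8.76-fold, in floating cells (edgeR adjusted p = 2.51e-24). The effect was smaller in floating cells by 1.16 ± 0.10, a difference that passed the interaction test (-1.16, edgeR adjusted p = 1.51e-08), and 10.8% of all genes passed that test (4.76% higher, 6.01% lower). The same interaction stands in the suspension effects, which were 3.03-fold in control cells (log2 1.60 ± 0.09, edgeR adjusted p = 2.50e-13) and 1.35-fold in GFI1 cells (0.43 ± 0.04, edgeR adjusted p = 3.40e-08). All neighbours in the order differed, since attached GFI1 cells stood 6.48-fold above floating control cells.

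ITGA2 moved down with GFI1 and up with suspension. Its level was 54.9, 59.8 and 64.0 CPM in attached control, 24.7, 24.8 and 29.0 CPM in attached GFI1, 147.8, 145.0 and 141.1 CPM in floating control, and 38.2, 60.2 and 32.6 CPM in floating GFI1 libraries, from counts of 439 to 2493. Floating control cells were highest and attached GFI1 cells lowest, and within floating GFI1 cells replicate 2 was far above the other two. GFI1 lowered ITGA2 by 1.19 ± 0.13 on the log2 scale in attached cells (-1.19, edgeR adjusted p = 1.60e-08) and by 1.73 ± 0.12, a 3.32-fold fall, in floating cells (-1.73, edgeR adjusted p = 1.81e-12), with no overlap of groups. Suspension raised it 2.43-fold in control cells (1.28 ± 0.11, edgeR adjusted p = 1.48e-09) and 1.66-fold in GFI1 cells (0.73 ± 0.13, edgeR adjusted p = 0.000119).

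The size of the ITGA2 steps that involve floating GFI1 cells depended on their replicate 2, the library with the highest GFI1, at 705.5 CPM. Without it, the suspension effect on ITGA2 in GFI1 cells was 0.42 (edgeR adjusted p = 5.63e-05) in place of 0.73, and the GFI1 effect in floating cells was -2.03 in place of -1.73. Floating GFI1 cells were lower than attached control cells by 0.45 ± 0.12 on the log2 scale (-0.45, edgeR adjusted p = 0.00214), but these groups overlapped in CPM, the call was lost with DESeq2 (adjusted p = 0.0602), and the value was -0.75 without replicate 2 and -0.28 without replicate 3. The GFI1 effect differed between states by -0.55 ± 0.18 (edgeR adjusted p = 0.0452). That call was lost with DESeq2 (adjusted p = 0.253) and on leaving out any library but floating GFI1 replicate 2, without which it was -0.86 (edgeR adjusted p = 1.94e-08). The part of the GFI1 level in the ITGA2 value of that library was not tested. On leaving out any 1 library, the GFI1 effects in floating cells ran from 3.11 to 3.16 for ITGA10, from 5.56 to 6.02 for ITGA11 and from -1.33 to -1.21 for ITGA1.

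ITGA1 was barely present in A549. Attached control libraries held 26, 40 and 36 counts (1.55, 2.17 and 2.07 CPM), and attached GFI1 libraries 23, 26 and 39 (1.30, 1.20 and 1.95 CPM). Floating control libraries held 35, 41 and 43 counts (2.07, 2.47 and 2.44 CPM), and floating GFI1 libraries 17, 17 and 21 (0.938, 0.937 and 1.04 CPM). Floating GFI1 cells were below every other library, while the 2 attached groups overlapped. GFI1 lowered ITGA1 by 1.25 ± 0.26 on the log2 scale in floating cells (-1.25, edgeR adjusted p = 0.000167). In attached cells the value was -0.38 ± 0.24 (95% interval -0.88 to 0.12, edgeR adjusted p = 0.178), and without attached GFI1 replicate 3 it was -0.63 (edgeR adjusted p = 0.0499). The suspension values were 0.27 ± 0.23 in control cells (-0.22 to 0.75, edgeR adjusted p = 0.401) and -0.60 ± 0.27 in GFI1 cells (-1.16 to -0.04, edgeR adjusted p = 0.0959), and the interaction was -0.87 ± 0.36 (edgeR adjusted p = 0.133).

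In the order floating control, attached control, attached GFI1 and floating GFI1, no neighbouring levels of ITGA1 differed past the threshold, but steps across the order did. Floating GFI1 cells were 1.98-fold below attached control cells (-0.98 ± 0.26, edgeR adjusted p = 0.00193), and attached GFI1 cells stood 0.65 ± 0.24 below floating control cells on the log2 scale (-0.65, edgeR adjusted p = 0.0229), a call that DESeq2 did not make (adjusted p = 0.0957). The first exon of ITGA1 begins at the same base as PELO, a ribosome rescue gene, with 499 shared exon bases, and PELO held 664 to 941 counts, so reads in the shared stretch cannot be assigned to one gene. With GFI1, PELO rose by 0.15 ± 0.05 (edgeR adjusted p = 0.012) in attached cells, and its value in floating cells was 0.05 ± 0.05 (edgeR adjusted p = 0.38). ITGA2-AS1, an antisense RNA that shares 1385 exon bases with ITGA1, had at most 3 counts in any library.

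Of the 4 subunits, GFI1 raised 2 and lowered 1 in attached cells, where 62.3% of all tested genes were called (29.5% higher and 32.8% lower). In floating cells it raised 2 and lowered 2, with 60.4% of genes called (29.3% higher and 31.1% lower). Calls were therefore common, and the median size of a called change was 0.58 on the log2 scale in both states, against 4.29 and 3.13 for ITGA10 and 6.06 and 5.75 for ITGA11. Suspension raised 2, ITGA2 and ITGA10, and lowered 0 in control cells, where 40.1% of genes were called (19.6% higher, 20.5% lower). It also raised ITGA2 and ITGA10 and lowered 0 in GFI1 cells, where 31.3% were called (15% higher, 16.3% lower). The median log2 fold change of the 4 was 1.96 and 0.94 with GFI1 and 0.80 and 0.22 with suspension, against -0.01, 0.01, 0.01 and 0.00 over all genes. Floating GFI1 cells differed from attached control cells in all 4 (2 higher, 2 lower), where 68.5% of genes were called (33.7% higher, 34.7% lower), and attached GFI1 cells differed from floating control cells in all 4 (2 higher, 2 lower), where 57.4% were called (27.9% higher, 29.5% lower). In bulk RNA, fewer cells with a transcript and less of it per cell cannot be told apart. Beside these changes, the epithelial marker sum, CDH1 and the fibroblast marker COL1A1 were lower with GFI1. ITGB2, the endothelial CDH5 and VWF, the fibroblast PDGFRB and, in attached cells, the epithelial KRT19 were higher. The part of these markers in the changes was not tested.

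**Figure D2:**
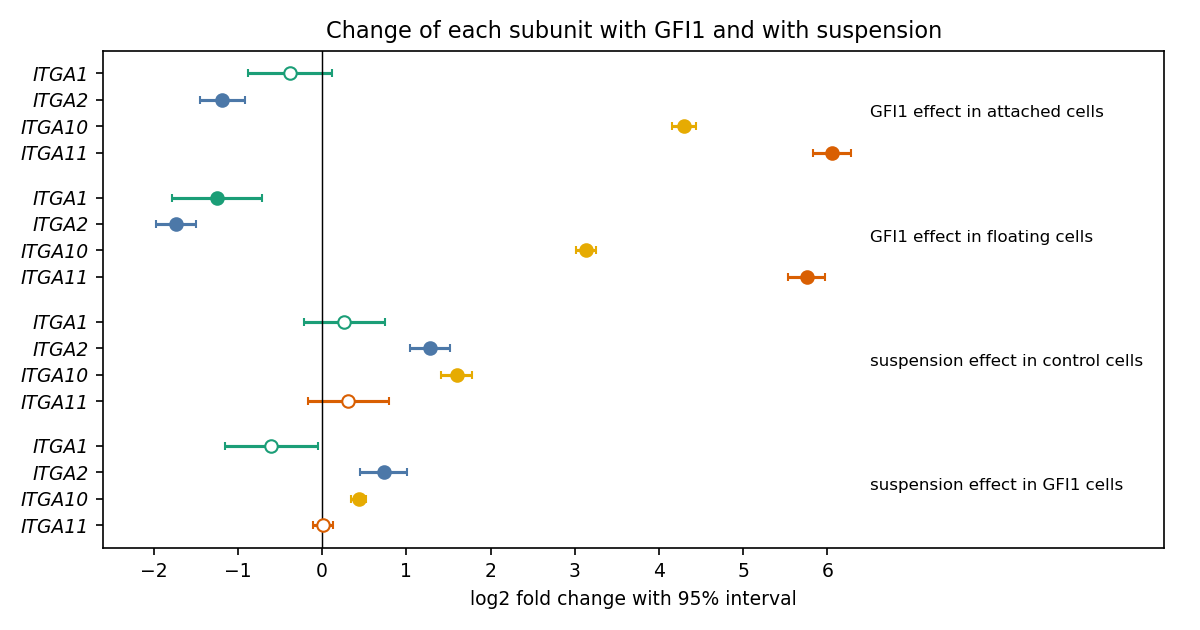
Log2 fold change of each subunit (x axis) with its 95% interval for the GFI1 effects and the suspension effects, from the edgeR fit of 12 libraries. Filled points passed an adjusted p of 0.05 and open points did not, and ITGA10 and ITGA11 lie far to the right under GFI1 while ITGA2 lies to the left of 0 under GFI1 and to the right under suspension.

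Levels of the 4 genes were compared with one another as counts per kb of merged exon. ITGA2 made up 88.0% ± 0.508 (SD, n = 3) of the sum of the 4 in attached control and 87.2% ± 0.111 in floating control libraries, and 11.8% ± 0.898 and 15.3% ± 4.12 in attached and floating GFI1 libraries. ITGA10 and ITGA11 together made up 10.8% ± 0.498 of the attached control and 87.9% ± 0.969 of the attached GFI1 sum, and 12.3% ± 0.0502 of the floating control and 84.5% ± 4.11 of the floating GFI1 sum. The lowest of these joint shares in a GFI1 library was 79.8%, in floating GFI1 replicate 2. ITGA1 was at most 1.35% of the sum in any library.

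Averaged over both states, GFI1 moved the share of ITGA2 by -74.0 percentage points, that of ITGA10 by 47.0, that of ITGA11 by 27.6 and that of ITGA1 by -0.687. Each had an adjusted p of 0.005 in an exact two-sided permutation test over 400 arrangements of the labels within state, which is the smallest p it can give. The shares of a library are parts of the same sum. Gains of ITGA10 and ITGA11 therefore lower the shares of ITGA2 and ITGA1 even at unchanged levels. The share tests are thus not separate findings, and a lower share does not show a lower level. The level of ITGA1, for example, did not pass the test with GFI1 in attached cells (-0.38, edgeR adjusted p = 0.178). The shares do not depend on library scaling but do depend on the length used. Per kb of merged exon, ITGA10 exceeded ITGA11 in attached GFI1 cells (55.7% against 32.2%), while per kb of coding sequence the shares were 44.1% ± 0.516 and 43.5% ± 1.09. Which of ITGA10 and ITGA11 leads in attached GFI1 cells therefore rests on the length, whereas in floating GFI1 cells ITGA10 led by either length (59.1% against 25.4%, and 48.4% against 35.6%).

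**Figure D3:**
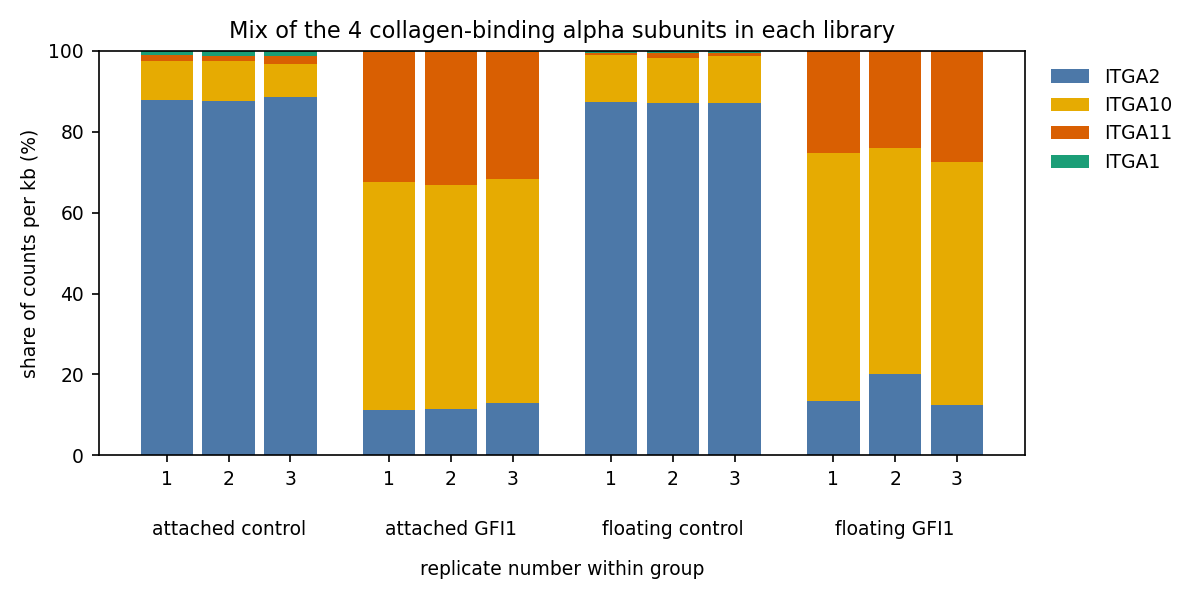
Share of each subunit (%) in the sum of counts per kb of merged exon over the 4 genes, 1 bar per library. ITGA2 fills 87.1% to 88.5% of every control bar, and ITGA10 and ITGA11 together fill 79.8% to 88.6% of every GFI1 bar.

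Pairs of subunits changed by unequal amounts. With GFI1, the ratio of ITGA11 to ITGA2 rose by 7.42 on the log2 scale (7.28 in attached and 7.56 in floating cells), that of ITGA10 to ITGA2 by 5.19, and that of ITGA11 to ITGA10 by 2.23. Those to ITGA1 rose by 6.75 for ITGA11 and by 4.52 for ITGA10. Each of these 5 ratios had an adjusted p of 0.006 over the 6 pairs in the exact permutation test (400 arrangements, smallest p 0.005). On the log2 scale, the gain of ITGA11 (6.06 and 5.75) was larger in size than the changes of ITGA2 (-1.19 and -1.73) and ITGA1 (-0.38 and -1.25). The ratios to ITGA2 and ITGA1 set a rise beside a fall, so their tests do not rank these sizes. The order also rests on the log2 scale and the low control level of ITGA11. In floating cells, mean ITGA2 fell from 144.6 to 43.7 CPM, about as large a step in CPM as that of ITGA11, from 1.82 to 98.5 CPM. The ratio of ITGA2 to ITGA1 changed by -0.67 (exact permutation, adjusted p = 0.015), a call that was lost with the replicate numbers as a block (adjusted p = 0.0625). With suspension, the ratio of ITGA10 to ITGA2 changed by 0.32 in control and by -0.26 in GFI1 cells, which averaged to 0.03 (exact permutation of the average, adjusted p = 0.855). In control cells the attached (-3.45 to -3.14) and floating libraries (-2.96 to -2.91) did not overlap in this log2 ratio, while in GFI1 cells they did (2.11 to 2.33 and 1.48 to 2.28). The ratio of ITGA11 to ITGA1 had an average of 0.31 (adjusted p = 0.222 in the same exact permutation test). Suspension raised ITGA2 and ITGA10 against ITGA1 by 1.13 and 1.16, and lowered ITGA11 against ITGA2 and ITGA10 (-0.82 and -0.85), each with an adjusted p of 0.0075 in the exact permutation test.

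ITGB1, the obligate partner chain, fell while the alpha sum rose. It stood at 2543 ± 12.1 CPM (SD, n = 3) in attached control, 1979 ± 42.2 in attached GFI1, 2654 ± 82.2 in floating control and 1830 ± 43.9 in floating GFI1 cells. GFI1 lowered it by 0.36 ± 0.04 on the log2 scale in attached cells (-0.36, edgeR adjusted p = 1.5e-08) and by 0.54 ± 0.04 in floating cells (-0.54, edgeR adjusted p = 1.0e-11). ITGB1 is another gene the study picked partly on these libraries. The sum of the 4 alpha subunits, in CPM per kb, was 8.58 ± 0.625 in attached control, 28.0 ± 0.580 in attached GFI1, 21.0 ± 0.464 in floating control and 35.7 ± 2.34 in floating GFI1 cells. As a percentage of ITGB1 per kb, it was 4.91% ± 0.342, 20.6% ± 0.725, 11.5% ± 0.315 and 28.5% ± 2.36. Over both states GFI1 raised this ratio 3.22-fold (exact permutation p = 0.005, the smallest of 400 arrangements). Both parts of the ratio were chosen with results of these libraries known, so its test is not independent evidence. The partner transcript thus stayed above the sum of these 4 alpha transcripts per kb in every library. ITGB1 also pairs with other alpha subunits, which this sum leaves out. ITGA3, 1 of them, stood at 71.5 CPM per kb in floating GFI1 cells, against 125.7 for ITGB1. Whether ITGB1 exceeded all of its partners was not tested.

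Counts of calls in this and the following lists were not tested against the shares over all tested genes. With GFI1 those shares were 62.3% in attached and 60.4% in floating cells, and with suspension 40.1% in control and 31.3% in GFI1 cells. Of the 8 other alpha subunits that pair with ITGB1, 6 were tested, and GFI1 raised 4 and lowered 1 in attached and raised 3 and lowered 1 in floating cells, with medians of 0.37 and 0.22. ITGA4, an alpha chain of leukocytes that binds VCAM1 and fibronectin, led the gains at 2.92 ± 0.19 and 3.41 ± 0.19 (edgeR adjusted p = 6.6e-13 and 4.3e-14), from 1.31 to 9.98 CPM in attached cells. ITGA6, the laminin-binding chain, led the losses at -1.93 ± 0.07 and -2.07 ± 0.06 (edgeR adjusted p = 1.2e-18 and 2.0e-19). Like ITGA2 and ITGA10, ITGA6 rose on suspension in control (0.38 ± 0.06, edgeR adjusted p = 8.6e-06) and GFI1 cells (0.24 ± 0.07, edgeR adjusted p = 0.0095). ITGA8 and ITGA9 had at most 5 counts in any library. The leukocyte alpha chains that share the I domain but pair with other beta chains mostly had few counts. Of 5 tested, 1 rose and 3 fell in attached cells, and 1 rose and 4 fell in floating cells (median -0.53 attached, -1.58 floating). Over all tested genes, 29.5% rose and 32.8% fell in attached cells, and 29.3% rose and 31.1% fell in floating cells. The gain was ITGAD, at 4 to 19 counts in any library. The losses were led by ITGAE (-0.53 ± 0.09) in attached and ITGAX (-1.85 ± 0.24) in floating cells. ITGAE had 249 to 487 counts in any library, ITGAX 7 to 79, ITGAM 5 to 20 and ITGAL 0 to 17. ITGAX rose on suspension in control cells (2.02 ± 0.24, edgeR adjusted p = 2.4e-07).

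Other collagen receptors rose or did not pass the test with GFI1. Of 6 tested among 7, 3 rose in attached and 4 in floating cells and 0 fell, with medians of 0.63 and 0.71. DDR1, the collagen receptor tyrosine kinase of epithelial cells, went from 99.2, 95.4 and 94.9 CPM in attached control to 237, 231 and 232 CPM in attached GFI1 libraries, and from 144, 133 and 134 to 228, 218 and 221 CPM in floating cells. Its groups did not overlap between control and GFI1 in either state, and the GFI1 effect was 1.27 ± 0.04 (edgeR adjusted p = 1.0e-18) and 0.70 ± 0.04 (edgeR adjusted p = 1.7e-13). As for ITGA10, it was smaller in floating cells (interaction -0.57 ± 0.06, edgeR adjusted p = 2.7e-07). ADGRG1, an adhesion G protein-coupled receptor that binds collagen III, rose by 0.85 ± 0.05 and 0.91 ± 0.05, and MRC2, an endocytic collagen receptor, by 0.66 ± 0.04 and 0.72 ± 0.04. DDR2, the receptor kinase best known from mesenchymal cells, had 7 to 25 counts and values of 0.57 ± 0.37 (edgeR adjusted p = 0.19) and -0.04 ± 0.35 (edgeR adjusted p = 0.93), and the sign of the second was not stable.

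The collagens that A549 cells themselves transcribe went several ways. Of the 6 basement membrane collagen chains, ligands of the ITGA1 integrin, GFI1 lowered 5 and raised 1 in both states, with medians of -1.21 and -1.48. COL4A1, which forms the main network with COL4A2, fell from 303 ± 7.36 to 52.7 ± 1.75 CPM in attached cells (-2.52 ± 0.05, edgeR adjusted p = 2.4e-23) and by 2.07 ± 0.05 in floating cells (-2.07, edgeR adjusted p = 2.5e-21). COL4A2 fell by 2.18 ± 0.04 and 1.88 ± 0.04 (-2.18 and -1.88), and COL4A5 rose by 0.89 ± 0.04 and 0.69 ± 0.04. Of 11 fibrillar chains, 7 were tested, and 3 rose and 3 fell in attached cells and 2 rose and 3 fell in floating cells. COL5A2 led the losses (-3.26 ± 0.06 and -4.20 ± 0.06), while COL5A1 changed by 0.10 ± 0.04 (edgeR adjusted p = 0.032) and 1.05 ± 0.04 (edgeR adjusted p = 7.1e-17). COL11A2 led the gains in attached cells (0.56 ± 0.18, edgeR adjusted p = 0.0074). Of the collagen I pair, COL1A2 had at most 2 counts in any library, and COL1A1 was at 12.1 to 13.9 CPM in attached control and 5.91 to 6.87 CPM in attached GFI1 libraries. Among other collagen ligand chains, 6 of 9 were tested, and 2 rose and 1 fell in each state, led by COL16A1 (0.65 ± 0.09 and 0.67 ± 0.10) and COL13A1 (-2.29 ± 0.53 and -3.47 ± 0.48).

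**Figure D4:**
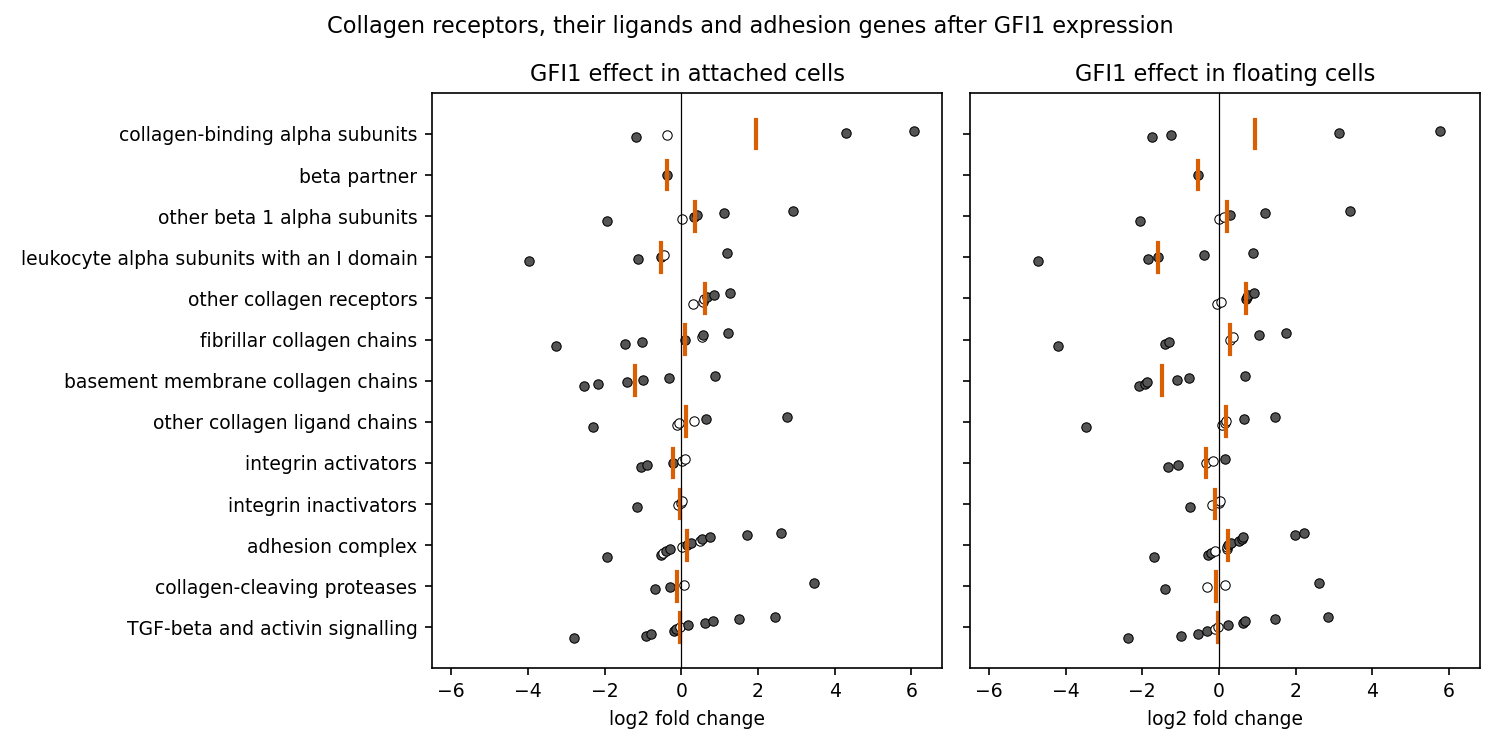
Log2 fold change with GFI1 (x axis) of each tested gene in 13 lists around the collagen receptors, in attached cells (left) and floating cells (right), with called genes filled and the list median as a vertical bar. The 2 right-most points of the top row are ITGA10 and ITGA11, and 5 of 6 basement membrane collagen chains lie to the left of 0.

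Some genes switch integrins on or off from inside the cell. Among 5 activators, GFI1 lowered 3 and raised 0 in attached cells and lowered 2 and raised 1 in floating cells, led by FERMT2 (kindlin-2, which binds the beta tail), at -0.90 ± 0.06 and -1.07 ± 0.06. TLN1, encoding talin, had values of 0.02 ± 0.04 (edgeR adjusted p = 0.64) and 0.15 ± 0.04 (edgeR adjusted p = 0.0018). Suspension lowered 4 of the 5 in control and 4 in GFI1 cells and raised 0, led by TLN2 (-0.71 ± 0.09 and -0.63 ± 0.09). Among 4 inactivators, FLNA, filamin A, was the 1 called under GFI1 (-1.16 ± 0.05 and -0.74 ± 0.05), and it also led the 3 that fell on suspension in control cells (-1.11 ± 0.05). FLNA, too, was among the genes that the study picked.

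Of 13 adhesion complex genes, GFI1 raised 6 and lowered 4 in attached and raised 7 and lowered 3 in floating cells. Over all tested genes, 29.5% rose and 32.8% fell in attached cells, and 29.3% rose and 31.1% fell in floating cells. BCAR1, the p130Cas scaffold, led the gains (1.70 ± 0.05 and 2.21 ± 0.05) and TNS3, a tensin, the losses (-1.93 ± 0.05 and -1.70 ± 0.05). On suspension in control cells, 2 of the 13 rose and 6 fell. Collagen-cleaving proteases were scarce, with 4 of 8 tested: MMP16, a membrane-type enzyme at 2 to 5 counts in controls, rose by 3.46 ± 0.36 and 2.60 ± 0.39, and MMP14 (-0.68 ± 0.17) led the losses in attached and MMP2 (-1.41 ± 0.11) in floating cells. TGF-beta signalling is known to induce ITGA11 in fibroblasts. Of 11 TGF-beta and activin genes, 5 rose and 5 fell in attached cells, and 5 rose and 4 fell in floating cells. Their medians were -0.05 and -0.02. The list holds ligands, receptors and SMADs together, so these RNA values do not measure signalling. The part of TGF-beta in the ITGA11 change was not tested. TGFB1 rose by 1.51 ± 0.06 and 1.47 ± 0.06, and TGFB2 fell by 2.78 ± 0.08 and 2.38 ± 0.09 (-2.78 and -2.38).

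Genes next to the 4 loci were read in the same fit. Beyond ITGA2, MOCS2, a molybdenum cofactor gene 900 bases away, fell by 0.71 ± 0.08 and 0.94 ± 0.08 (-0.71 and -0.94; edgeR adjusted p = 9.2e-09 and 1.1e-10). Beside ITGA11, both protein-coding neighbours rose: FEM1B, a ubiquitin ligase substrate receptor 670 bases away, by 0.68 ± 0.04 and 0.66 ± 0.04 (edgeR adjusted p = 8.4e-13 and 1.5e-12), and CORO2B, an actin-binding coronin 146830 bases away, by 3.19 ± 0.33 and 3.51 ± 0.32 (edgeR adjusted p = 4.8e-09 and 5.4e-10). CORO2B had 8 to 22 counts in control and 114 to 249 in GFI1 libraries, with no overlap. Next to ITGA10, ANKRD35 had at most 8 counts in any library. MOCS2 thus had the direction of ITGA2, and FEM1B and CORO2B that of ITGA11.

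Over the 12 libraries, the log2 CPM of ITGA10 and ITGA11 went together (Pearson r = 0.96), ITGA1 and ITGA2 did so less closely (r = 0.66), and ITGA2 ran opposite to ITGA11 (r = -0.78). These values are descriptions, since the libraries share 4 group means. By the same measure over 11853 protein-coding genes, the genes most like ITGA10 were RAP1GAP (r = 0.999), LRP5 (r = 0.998) and NFAT5 (r = 0.998), and COL4A1 was its closest opposite (r = -0.997). Those most like ITGA11 were CD274, which encodes PD-L1 (r = 0.997), ATP8B2 (r = 0.996) and ERAP1 (r = 0.996), with PGAM1 as the opposite (r = -0.997). For ITGA2 they were SPRED1 (r = 0.989), ZNF385A (r = 0.988) and ERRFI1 (r = 0.988), and the opposite was RSPO3 (r = -0.990). ITGA1, with its low counts, had looser matches in MED13L (r = 0.929), IGSF11 (r = 0.927) and CTNND1 (r = 0.920).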

How the data were processed

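The authors selected poly-A mRNA, sequenced it on an Illumina NovaSeq system and deposited a table of raw counts of fragments per gene for 12 libraries. Their methods name FastQC, Hisat2 with GRCh38 and featureCounts, while the submitters' processing notes list Bowtie2, HTSeq and hg38. The strand setting and annotation release are not given in the sources used here. Table columns were matched to samples by title, and 0 columns of values were left over.

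The filterByExpr function of edgeR 4.0.16 (R 4.3.3) kept genes with a minimum count of 10 and a total of 15. After TMM scaling, the 12 libraries and 17829 genes went into 1 quasi-likelihood fit with a mean for each of 4 groups. The 7 contrasts were tested two-sided, adjusted by Benjamini-Hochberg over all tested genes and called at 0.05 or less. A prior count of 2 was used for log2 CPM and one of 0.5 for ratios. Lengths and positions came from GENCODE release 44, which matched 99.1% of the gene identifiers.

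The 4 members, the 12 lists beside them and the 4 marker lists were chosen with earlier results of these data known. In each list, the called gene with the lowest adjusted p in a direction is named, besides ITGB1, DDR1 and DDR2. The nearest protein-coding and overlapping genes of each member, and the 3 most and 1 least correlated genes, are named too. 1 gene that this rule names is not reported here. MRC2, COL4A2, COL1A1, COL1A2, TLN1 in attached cells, COL5A1 in attached cells, ITGA3, ITGA8 and ITGA9 were named after their values were seen. ITGAL, DCN, POSTN, FAP, ACTA2 and PTPRC are also named outside that rule. Alternatives were DESeq2 1.42.0, other scalings and filters, robust empirical Bayes, a replicate block, other gene lengths, the 2 groups compared alone, and leaving out each library. The gene lengths of the deposited table were an alternative chosen after seeing the data. Ratios, shares and the sum over ITGB1 were tested by exact permutation within state or genotype. The code was tested on simulated data.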

Additional observations from a re-analysis of the deposited data

Results flagged for a closer look

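The GFI1 effect on ITGA10 differed between floating and attached cells by -1.16 on the log2 scale (4.29 in attached and 3.13 in floating cells), and the interaction test passed under every alternative run (edgeR adjusted p = 1.51e-08, range 2.17e-20 to 4.12e-07 over the alternatives). For ITGA2 the effects differed by -0.55 (edgeR adjusted p = 0.0452), and the adjusted p ran from 1.94e-08 to 0.302 over the alternatives. Groups of 3 libraries were too small for a search for single outlying values.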

How the results depend on the processing

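For the 4 subunits, 532 of 556 alternative values kept their direction and their side of the threshold, and the number of genes called stayed within 1.5 times in all 139. ITGA2 in floating GFI1 against attached control cells lost its call with robust empirical Bayes (-0.45, adjusted p = 0.0689) and DESeq2 (-0.45, adjusted p = 0.0602), and its interaction did so with robust empirical Bayes (-0.55, adjusted p = 0.302) and DESeq2 (-0.55, adjusted p = 0.253), and in 11 of the 12 fits that leave out a library (-0.60 to -0.37), but not without floating GFI1 replicate 2 (-0.86). ITGA1 in attached GFI1 against floating control cells lost its call with library size only (-0.52, adjusted p = 0.0637), DESeq2 (-0.65, adjusted p = 0.0957) and 4 of the libraries left out (-0.61 to -0.50), in a range of -0.90 to -0.50 over all 12. With 1 library left out, the ITGA1 change with GFI1 in attached cells ran from -0.63 to -0.24, and the ITGA11 change on suspension from 0.0403 to 0.67 in control cells and from -0.0053 to 0.0185 in GFI1 cells. The suspension change of ITGA10 over ITGA2 ran from -0.0452 (-0.0180, -0.0013 and -0.0178 among them) to 0.15. DDR2 turned positive under GFI1 in floating cells with library size only (0.0923) and ran from -0.29 to 0.20 with a library left out, and its suspension change in GFI1 cells ran from -0.18 to 0.295. The causes were not tested. With library size only, the median of all genes moved to 0.14 in both GFI1 comparisons, and 61.5% of calls in attached and 61.4% in floating cells were higher, in place of 47.4% and 48.5% with TMM. The 4 subunits kept their directions.

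Libraries with the same replicate number did not deviate together (r = -0.0306 to 0.0311 over 18 pairs). A library was nearest to its own number in 10 of 36 comparisons. No pairing by number was therefore detected, but the labels do not say whether such libraries shared a day or culture. With the replicate block, 11054 genes were called for GFI1 in attached cells in place of 11102. The ratio of ITGA2 to ITGA1 under GFI1 (-0.67) went to an adjusted p of 0.0625 with the pairing (exact permutation), and no other call of a subunit, ratio or share was changed by the block. Depth limits ITGA1 (17 to 43 counts a library) and the control level of ITGA11 (20 to 41 counts), so small changes in either were not detectable.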
